A study of Mus musculus with 4 samples.

Results

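Primary mouse embryo fibroblasts labelled as lacking Gadd45a were compared with fibroblasts labelled as lacking both Gadd45a and the telomerase RNA gene Terc, the latter from generation 3 (G3) of Terc-null breeding. Fibroblasts were freed from minced embryos, and their poly(A) RNA was sequenced in 4 libraries, 1 per genotype, all of strain C57BL/6. The labels gave the pair compared here as Gadd45-/- and as G3 Gadd45-/-Terc-/- (dKO), and the series' design text named the shared deletion as Gadd45a. They are called the KO-labelled and the dKO-labelled library below, because the Gadd45a transcript was present in both, which leaves the labels unchecked. The other pair, wild type and G3 Terc-/- (the G3 Terc-labelled library), was used as a second reading of the Terc label in libraries that the first pair does not contain. The sources used here do not say how the alleles were made, how many embryos gave each culture, or its passage.

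Each library held 1 value per gene symbol for 23235 symbols, in FPKM, which scales the fragments of a gene to its transcript length and to the library's mapped fragments. Genes were chosen as members when they were neither short RNAs nor on chromosome X or Y and had a mean of 1 FPKM or more over the 2 libraries, which left 11031 members. At that edge, Cep70 (mean 1.001 FPKM) and Zfp235 (1.002) lay just inside, and Gca (0.999) and Ntf5 (0.997) just outside. A gene under 1 FPKM in 1 of the 2 libraries was a member only through its level in the other. The measure throughout is the difference of log2(FPKM + 1), dKO-labelled minus KO-labelled, and a gene is called higher or lower when the difference reached 1 or -1, a 2-fold difference of FPKM + 1. With 1 library a side there was no replicate error, so no test was made and every value below compares these libraries, not the genotypes.

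Telomerase adds repeats to chromosome ends by copying the template carried in its RNA, Terc, with the reverse transcriptase Tert. Mice bred without Terc lose telomere sequence from one generation to the next, and very short ends activate the DNA damage response, in which p53 and the inhibitor p21 (Cdkn1a) halt the cell cycle. Gadd45a is a stress-induced p53 target linked to repair, to p38 kinase signalling and to active DNA demethylation. Cultured embryo fibroblasts are widely used to follow arrest and senescence, since they divide quickly at first and respond to damage and to oxygen.

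The transcripts under the labels were looked at first. Gadd45a stood at 22.9 FPKM in wild type, 33.9 in the KO-labelled, 31.4 in the G3 Terc-labelled and 45.1 in the dKO-labelled library, so it was listed at a higher value in both libraries labelled deficient than in wild type. A gene total cannot show whether a deleted allele still gives a transcript. Terc RNA, which has no poly(A) tail, was near the floor, at 0.530 FPKM in wild type and 0.259 in the KO-labelled library, and was listed at 0 in both G3 libraries. Tert read 1.21, 1.12, 2.23 and 2.01 FPKM in the same order. The paralogues differed little, with Gadd45b at 28.4 FPKM in the KO-labelled and 25.0 in the dKO-labelled library, and Gadd45g at 147 and 118 FPKM. Embryo sex also separated this pair. Xist, which coats the inactive X chromosome, read 0.154 FPKM in the KO-labelled and 34.1 FPKM in the dKO-labelled library, while 4 Y-linked genes read 3.21 to 23.1 FPKM in the KO-labelled library and at most 0.0973 in the other 3, so sex and the Terc label cannot be told apart here. All 12 fibroblast markers were measured, with a summed level of 13586 FPKM in the KO-labelled and 12673 FPKM in the dKO-labelled library, most of it from Col1a1, Vim, Fn1 and Col1a2. Of the 12, 9 had a difference below 0 with a median of -0.33, such as Thy1 at 792 and 476 FPKM, and 1, Dcn, was higher. No marker of endothelial, lymphoid or neutrophil, glial, erythroid or trophoblast cells reached a mean of 1 FPKM over this pair. In single libraries the trophoblast gene Prl2c3 read 1.54 FPKM in the dKO-labelled and 38.6 FPKM in the G3 Terc-labelled one, and was listed at 0 in the others. Of 8 neuronal markers, 3 were at a higher level in the dKO-labelled library. Only 1 of them was measured, Tubb3, which was higher at 36.3 and 77 FPKM. Of 9 keratinocyte markers, 4 were at a higher level in the dKO-labelled library. The 2 measured ones went in both directions, with Sfn lower at 9.41 and 2.99 FPKM and Krt10 at 0.927 and 1.38 FPKM. The part of such cells was not tested. Estimated depth was 19500000 to 19900000 fragments a library, where 1 FPKM on a 2 kb transcript stands for 38.9 to 39.9 fragments.

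Most members were at similar levels in both libraries. Of the 11031 members, 8722 (79.1%) differed by less than 0.5, with a median difference of -0.02 and a standard deviation across genes of 0.48. In all, 268 members (2.43%) were higher and 260 (2.36%) lower in the dKO-labelled library. A difference below 0 was found for 5710 (51.8%) and above 0 for 5321. Differences of 2 or more were found for 33 higher and 25 lower members. Medians by autosome lay between -0.04 and 0.0015. The members were then read by function. The counts of each gene list are to be read against these shares, which are not repeated for every list. A listed gene counts as measured when it is a member, which held for 59 of 60 mitosis, 61 of 63 replication, 37 of 48 interferon-stimulated and 7 of 18 acute phase genes, so a list says nothing of its genes below 1 FPKM.

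Genes of mitosis were lower together. Of 59 measured members of the mitosis list, 36 were lower and none was higher, 58 had a difference below 0, and the median was -1.04 against -0.02 over all members. Mki67, the proliferation antigen Ki-67, read 24.1 FPKM in the KO-labelled and 8.69 in the dKO-labelled library, 2.77-fold lower (difference -1.37), beside 27.9 in wild type and 2.97 in the G3 Terc-labelled library. Birc5, the survivin subunit of the chromosomal passenger complex, read 49.5 and 18.9 FPKM in the pair, with 55.6 in wild type and 8.03 in the G3 Terc-labelled library. Ccnb1, the cyclin that drives entry into mitosis, read 36.4 and 14 FPKM, with 36.5 and 4.06 in the other pair. In each of these genes the KO-labelled library lay near wild type, and the dKO-labelled library lay between it and the G3 Terc-labelled one. Ect2, which acts at the cleavage furrow, differed by -1.22, and Kif23, a kinesin of the midzone, also by -1.22. The exception was Pttg1, which encodes securin, the inhibitor of separase, at 16.1 and 16.9 FPKM. In bulk RNA, fewer cycling cells and less RNA per cycling cell cannot be told apart.

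Genes of DNA replication and the G1/S transition showed the same direction. Of 61 measured members, 22 were lower and none higher, 59 had a difference below 0, and the median was -0.85. Subunits of the replicative helicase made up the 5 members of largest difference. Mcm3 read 31.5 FPKM in wild type, 30.4 in the KO-labelled, 5.76 in the G3 Terc-labelled and 9.75 in the dKO-labelled library, 3.11-fold lower in the pair compared (difference -1.54). Mcm5 read 23.9 and 8.75 FPKM in the pair, Mcm7 42.7 and 17.3, and Mcm6 38.3 and 15.9. Gins1, a subunit of the GINS complex that completes this helicase, read 7.91 and 2.38 FPKM, 3.32-fold lower. The 2 members at or above 0 were the transcription factors E2f1 (0.02) and E2f3 (0.000193), named after their values were seen.

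**Figure D1:**
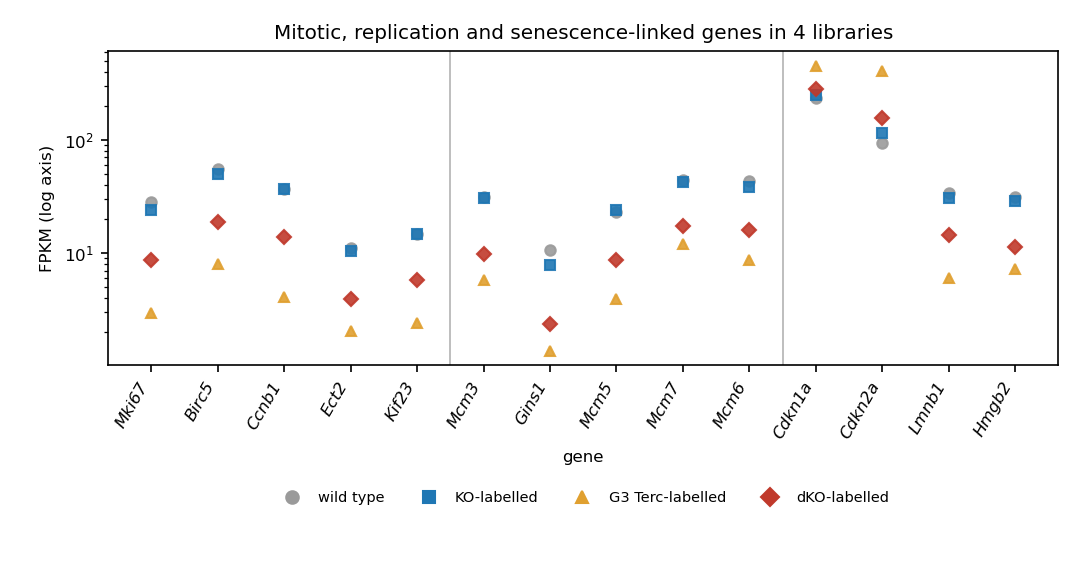
FPKM on a log axis in each of the 4 libraries for the 5 mitosis and the 5 replication genes of largest difference, and for 4 genes linked to arrest; each point is 1 library, and the vertical lines divide the groups. In the first 10 genes the dKO-labelled library (8.69 FPKM for Mki67) lies below the KO-labelled one (24.1) and above the G3 Terc-labelled one (2.97), while Cdkn1a is at 249 and 280 FPKM in the pair compared.

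The promoters of these genes carry short elements known from cell cycle control, and RefSeq windows of the build GRCm38.p6, 250 bases before to 50 after each transcript start, were searched on both strands. The CHR, an element bound by the DREAM repressor complex in resting cells, was searched as TTTGAA, and 34 of the 50 mitosis members with a window (68.0%) held it, against 13.7% of the 8767 members with a window and 20.2% of all 27025 genes in the table. The CCAAT box was held by 35 of the 50 (70.0%), against 42.9% of members. The E2F site, searched as GCGGGAA, was held by 18 of 49 replication members (36.7%), against 10.1% of members. None of the motifs searched holds the letters of another. The windows below show the match in capitals for the genes of largest difference that hold it within the part before the start, each 100 bases long and read along the gene's strand. They are Mki67 at chr7:135716423-135716522 (minus strand), Ect2 at chr3:27153938-27154037 (minus) and Kif22 at chr7:127042421-127042520 (minus) for the CHR, and Mcm7 at chr5:138171994-138172093 (minus) and Uhrf1 at chr17:56303237-56303336 (plus) for E2F. A match in these windows is a description of the letters, not of binding.
Mki67: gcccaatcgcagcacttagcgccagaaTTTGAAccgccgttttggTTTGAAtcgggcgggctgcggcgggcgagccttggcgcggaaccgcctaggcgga
Ect2: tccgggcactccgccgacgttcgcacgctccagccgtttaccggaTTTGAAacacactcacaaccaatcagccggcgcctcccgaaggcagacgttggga
Kif22: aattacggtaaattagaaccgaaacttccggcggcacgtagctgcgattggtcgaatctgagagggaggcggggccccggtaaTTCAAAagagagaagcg
Mcm7: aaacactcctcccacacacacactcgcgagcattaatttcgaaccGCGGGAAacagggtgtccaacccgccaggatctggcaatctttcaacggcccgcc
Uhrf1: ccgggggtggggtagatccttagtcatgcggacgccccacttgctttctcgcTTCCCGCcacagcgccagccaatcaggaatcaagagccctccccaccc

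In Kif22 and Uhrf1 the capitals are the motif on the opposite strand. Kif22, a chromosome-arm kinesin named for its promoter, read 19.6 FPKM in the KO-labelled and 8.03 in the dKO-labelled library. Uhrf1, which brings the maintenance methyltransferase to newly copied DNA, read 22.6 and 9.18 FPKM.

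Most repair and telomere genes had small differences below 0, and chromatin lists were mixed. Of 39 measured genes of DNA damage repair, 34 had a difference below 0 and the median was -0.33. Clspn, which encodes the checkpoint adaptor claspin, was lower at 6.63 and 2.66 FPKM. Among 24 measured genes of telomerase and telomere binding, none was higher or lower and 19 had a difference below 0, with Gar1 (-0.67) and Nhp2 (-0.63), both proteins of the telomerase RNA particle, and Terf1 (-0.64), a binder of telomeric repeats, among the 5 of largest difference. In the list of base excision repair and DNA methylation, 21 of 27 had a difference below 0 and the median was -0.20. The 2 lower members there were Uhrf1 (-1.21) and the replicative ligase gene Lig1 (-1.12). In the heterochromatin list, 15 of 26 had a difference below 0, near the share of all members, and the 1 lower member was Lmnb1, which encodes lamin B1, at 30.7 and 14.4 FPKM. Of 17 histone genes, 10 had a difference above 0, as did 5321 of all 11031 members. Of the 17, 4 were higher and 1, the variant gene H2afz, was lower, at 350 and 159 FPKM. Hist1h4h, higher at 1.10 and 11.9 FPKM, has near-identical copies, and most replication-dependent histone messages lack a poly(A) tail, so its value is uncertain.

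Ribosome production genes shared a modest downward difference. All 37 measured genes of ribosome biogenesis had a difference below 0, against 51.8% of members, with a median of -0.63 and none past the size rule. Fbl, the methyltransferase fibrillarin, read 155 and 87.8 FPKM, and Nolc1, a nucleolar phosphoprotein, 38.6 and 20.3 FPKM. Of 49 ribosomal protein genes, 48 had a difference below 0 with a median of -0.28, and of 52 mitochondrial ribosomal protein genes 50 did, also with a median of -0.28. Rps27 gave the largest lower difference of any member, at 220 FPKM in the KO-labelled and 9.70 in the dKO-labelled library (-4.37). It has a near-identical copy listed as Gm9846, at 1201 and 1297 FPKM, and summed with that copy it read 1421 and 1307 FPKM, so its own value is uncertain.

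The cell cycle inhibitors Cdkn1a and Cdkn2a did not pass the size rule in the pair, while other senescence-linked genes did. Cdkn1a read 236 FPKM in wild type, 249 in the KO-labelled, 452 in the G3 Terc-labelled and 280 in the dKO-labelled library, a difference of 0.17. Cdkn2a, the locus of p16 and p19Arf, read 93.9, 115, 407 and 156 FPKM in the same order, a difference of 0.45. The dKO-labelled library was thus nearer to the KO-labelled than to the G3 Terc-labelled one in both inhibitors. None of the 36 measured p53 targets was higher or lower, 25 had a difference above 0 and the median was 0.18. Dcxr (0.96) came first by size, and Mdm2, the ubiquitin ligase that p53 induces against itself, read 52.1 and 73.3 FPKM. In the list of senescence-linked genes, 1 of 20 was higher, Igfbp3 (1.20), and 3 were lower, Lmnb1 (-1.05), the chromatin protein gene Hmgb2 (28.8 and 11.3 FPKM) and Igfbp5 (-3.52).

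Most genes of glycolysis and the hypoxia response had a difference above 0. Of 42 measured members, 10 were higher and 1 lower, 38 had a difference above 0, and the median was 0.48. Bnip3, an inducer of mitochondrial autophagy, read 12.1 FPKM in wild type, 15.2 in the KO-labelled, 142 in the G3 Terc-labelled and 71.3 in the dKO-labelled library, 4.69-fold higher in the pair (difference 2.16). Adm, the vasodilator adrenomedullin, read 21.0 and 85.5 FPKM, and Plod2, a collagen lysyl hydroxylase, 20.1 and 58.0 FPKM. Hif1a, the oxygen-regulated transcription factor subunit, was itself higher at 48.8 and 115 FPKM, and the lower member was its relative Epas1 at 4.81 and 1.64 FPKM. The hypoxia response element, searched as TACGTG, lay in 9 of 37 windows of this list (24.3%), against 4.46% of members. The 2 genes of largest difference that hold it before the start, named for that match, are Ankrd37 at chr8:45999851-45999950 (minus strand), with 2.0 and 5.58 FPKM, and P4ha2, a prolyl hydroxylase subunit gene for collagen, at chr11:54100800-54100899 (plus), with 61.8 and 125 FPKM.
Ankrd37: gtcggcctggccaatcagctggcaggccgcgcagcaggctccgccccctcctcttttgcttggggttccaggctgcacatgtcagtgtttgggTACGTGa
P4ha2: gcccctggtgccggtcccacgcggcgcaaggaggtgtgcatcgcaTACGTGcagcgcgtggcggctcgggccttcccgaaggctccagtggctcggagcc

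Antioxidant, lysosomal and biosynthetic lists gave smaller differences. Among 37 genes of glutathione metabolism and the Nrf2 response, 2 were higher and 1 was lower, against 2.43% and 2.36% of all members. Of the 37, 25 had a difference above 0 and 12 below. The higher ones were the secreted peroxidase gene Gpx3 (11.8 and 93.6 FPKM, 7.90-fold) and the extracellular superoxide dismutase gene Sod3 (28.6 and 96.3 FPKM). The lower one was the glutathione reductase gene Gsr (22.2 and 10.1 FPKM). The antioxidant response element, searched as TGACNNNGC, was held by 9 of 30 windows of that list, against 17.1% of members. Of 49 lysosomal genes, 42 had a difference above 0, as did 5321 of all 11031 members, and 3 were higher, against 2.43% of members. The 3 were the cathepsin genes Ctsf (7.54 and 18.5 FPKM) and Ctsh (11.2 and 26.5 FPKM) and the heparan sulfate glucosaminidase gene Naglu (11.0 and 25.0 FPKM). Of 38 genes of amino acid supply and the ATF4 stress response, 32 had a difference below 0, with a median of -0.43. The 2 lower members there were Trib3 (41.5 and 18.3 FPKM), a pseudokinase gene, and Slc7a5 (99.5 and 47.9 FPKM), a transporter of large neutral amino acids. Of 36 sterol and fatty acid synthesis genes, 30 had a difference below 0 with a median of -0.35, and Lss, which encodes lanosterol synthase, read 52.1 and 29.7 FPKM. The C/EBP-ATF response element, searched as TGATGNAA, was held by 13 of 31 windows of the ATF4 list (41.9%), against 2.59% of members. The sterol response element, searched as TCACNCCAC, was held by 0 of 24 windows, against 1.37% of members.

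**Figure D2:**
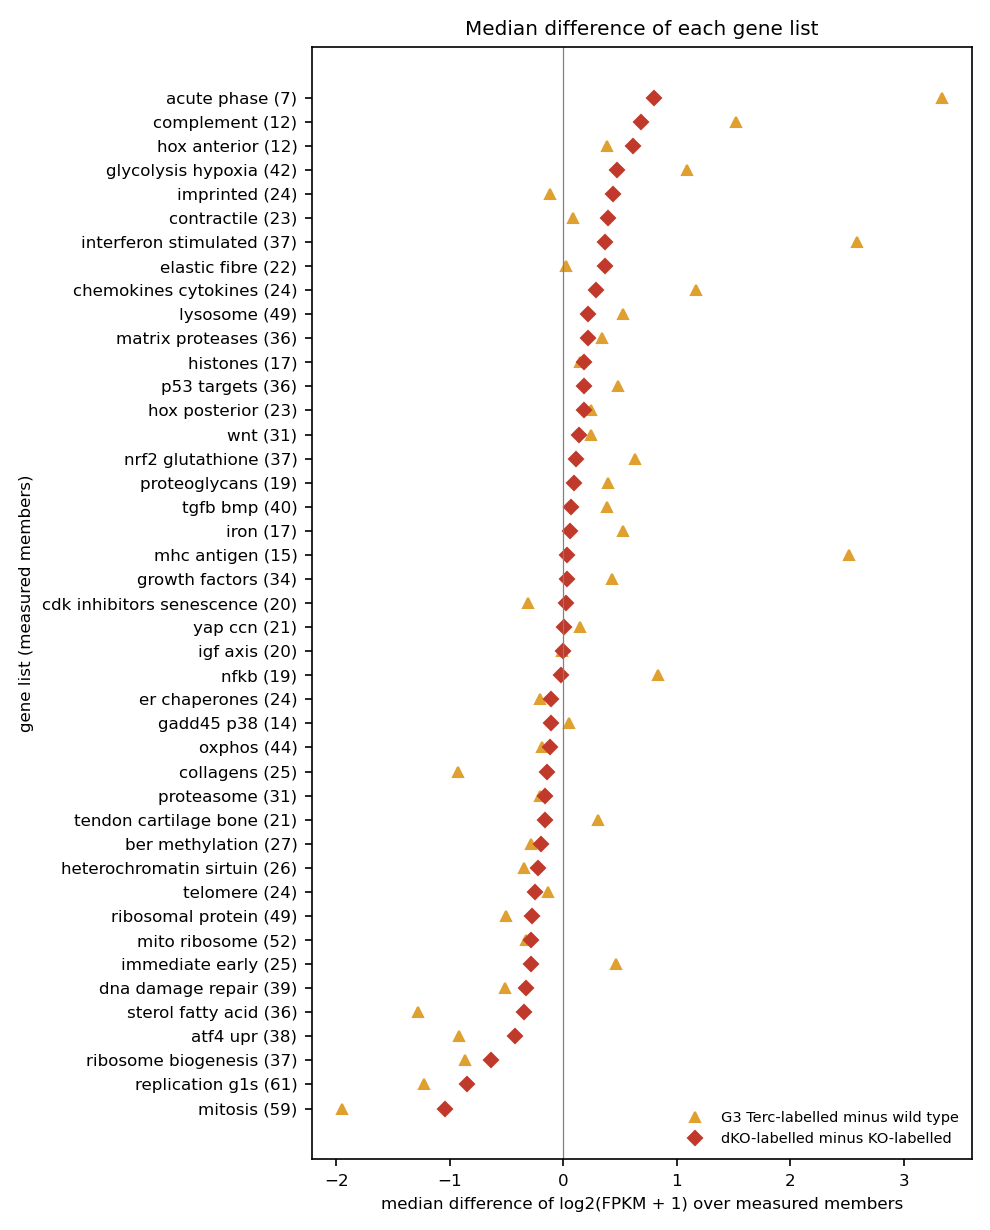
Median difference of log2(FPKM + 1) over the measured members of each pathway list, with the number measured in parentheses; diamonds are dKO-labelled minus KO-labelled and triangles G3 Terc-labelled minus wild type, and each list has 1 value per pair and no error. Mitosis (-1.04 and -1.95) and replication (-0.85 and -1.22) stand lowest in the pair compared. The highest, acute phase (0.80 and 3.33), rests on 7 of 18 listed genes and is 0.000285 in this pair with no filter on low values.

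Structural genes of the extracellular matrix differed in both directions. Eln, which encodes the core protein of elastic fibres, read 38.9 FPKM in wild type, 53.7 in the KO-labelled, 0.468 in the G3 Terc-labelled and 5.95 in the dKO-labelled library, 9.02-fold lower in the pair. Fbn2, a fibrillin gene of developing microfibrils, read 65.3 and 26.3 FPKM, and Mfap4 read 38.6 and 10.1 FPKM. Other microfibril genes were higher. Mfap5 read 15.3 and 67.5 FPKM and Efemp1, which encodes fibulin-3, 19 and 79.4 FPKM, so the elastic fibre list of 22 had 3 higher members, with Emilin2 (1.01, named after its values were seen) as the third, and 3 lower ones. Of 25 collagen genes, 6 were lower and 1 was higher, while 12 had a difference above 0 and 13 below, with a median of -0.15. Not past the size rule were Col1a1 (4565 and 4037 FPKM), Col1a2 (1968 and 1734) and Col3a1 (596 and 812), named after their values were seen. Col18a1, a basement membrane collagen gene, was 10.1-fold lower at 33.8 and 3.36 FPKM, Col6a2 read 277 and 88.2 FPKM, and Col6a1 read 329 and 144 FPKM. The higher one was Col8a2 (1.11), named after its values were seen. In proteoglycans, decorin (Dcn) was higher at 28.2 and 67.0 FPKM and podocan-like Podnl1 lower at 4.75 and 1.18 FPKM. Among matrix proteases and their inhibitors, 3 of 36 were higher and 1 lower, against 2.43% and 2.36% of all members. The urokinase gene Plau was higher at 35.6 and 105 FPKM, and the procollagen peptidase gene Adamts2 was lower at 40.3 and 15.9 FPKM.

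Some genes of the contractile apparatus were higher. Of 23 measured members, 5 were higher, none was lower and 20 had a difference above 0, with a median of 0.39. Myh11, smooth muscle myosin, read 7.86 FPKM in wild type, 9.48 in the KO-labelled, 34.0 in the G3 Terc-labelled and 52.1 in the dKO-labelled library, 5.50-fold higher in the pair. Cnn1, the actin-binding calponin, read 73.1, 120, 132 and 357 FPKM in the same order. Actg2, smooth muscle gamma-actin, read 146, 194, 108 and 504 FPKM, so it was highest in the dKO-labelled library and lowest in the G3 Terc-labelled one. Mylk, myosin light chain kinase, read 4.0 and 19.7 FPKM in the pair, and Acta1 read 56.4 and 120 FPKM. Abundant members did not pass the size rule, such as Acta2 (0.28), Tpm1 (0.27) and Tagln (0.17), named after their values were seen. All 8 markers of smooth muscle and pericytes, some of which this list shares, were at a higher level in the dKO-labelled library, with a summed level of 207 FPKM in the KO-labelled and 511 FPKM in the dKO-labelled library and none at 0. The part of such cells in the result was not tested.

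**Figure D3:**
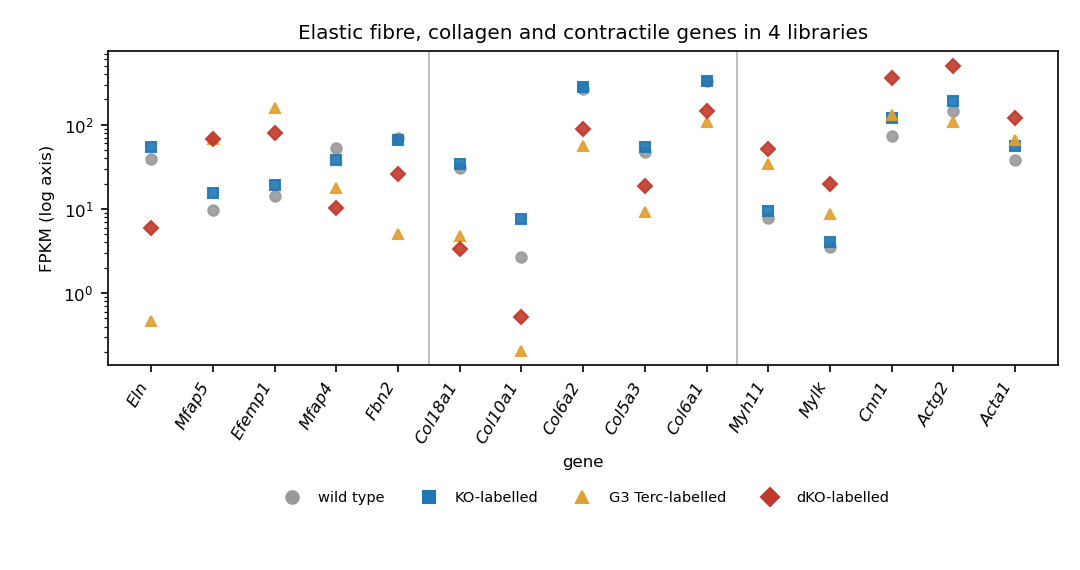
FPKM on a log axis in each of the 4 libraries for the 5 elastic fibre, 5 collagen and 5 contractile genes of largest difference; each point is 1 library. Eln, at 53.7 FPKM in the KO-labelled and 5.95 in the dKO-labelled library, and the 5 collagen genes are lower in the dKO-labelled library, and the 5 contractile genes are higher in it, with Actg2 at 504 FPKM.

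Growth factor axes held some of the largest single differences. Igfbp5, a binder of insulin-like growth factors, read 470 FPKM in wild type, 223 in the KO-labelled, 22 in the G3 Terc-labelled and 18.5 in the dKO-labelled library, 12.1-fold lower in the pair. Other genes of this axis were higher, with Igf1 at 4.18 and 12.2 FPKM, Igfbp4 at 56.7 and 135, Igfbp3 at 33.1 and 77.5 and Igfbp6 at 28.0 and 63.0, which made 4 higher and 1 lower of 20. In the Wnt list of 31, 4 were higher and 2 lower. The secreted Wnt antagonist Sfrp1 read 6.52 FPKM in wild type, 14.7 in the KO-labelled, 36.5 in the G3 Terc-labelled and 189 in the dKO-labelled library, 12.9-fold higher in the pair. The R-spondin receptor gene Lgr5 was 7.07-fold lower at 33.6 and 4.76 FPKM, and the ligand Wnt4 lower at 5.95 and 0.803 FPKM. The potentiator Rspo3 (1.39) and the antagonists Dkk2 (1.34) and Sfrp2 (1.04, named after its values were seen) were the other higher ones. Among 34 growth factor genes, the ligands Hgf (3.02 and 12.6 FPKM), Pdgfa (14.5 and 49.7) and Fgf7 (14.4 and 46.1) were higher, and the ligand Hbegf (44.4 and 14.7) and the receptor Fgfr2 (9.69 and 3.83) lower. In the TGF-beta and BMP list of 40, the matrix protein gene Tgfbi (12.2 and 41.1 FPKM) and the ligands Gdf6 and Gdf10 were higher, and the BMP antagonist Nog and the ligand Bmp4 (-1.03, named after its values were seen) lower. In the list of YAP targets and CCN matrix genes, none of 21 was higher, and the 2 lower ones were the CCN genes Wisp2 (159 and 43.2 FPKM) and Wisp1 (157 and 70.3). The TEAD site, searched as GGAATG, lay in 11 of 14 windows of that list (78.6%), against 14.4% of members. Myc, the growth-promoting transcription factor, was the 1 lower gene of 25 immediate early genes, at 36.4 and 14.9 FPKM.

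Interferon and antigen presentation genes differed little within the pair and by more in the other pair. Of 37 measured interferon-stimulated genes, none was higher or lower, 29 had a difference above 0 and the median was 0.37, whereas 35 of the 37 were higher in the G3 Terc-labelled library than in wild type, with a median of 2.59. With a pseudocount of 0.1 FPKM in place of 1, 4 of the 37 were higher and 1 lower in the pair. Zbp1, a sensor of left-handed nucleic acids, read 0.177 FPKM in wild type, 0.899 in the KO-labelled, 36.2 in the G3 Terc-labelled and 2.67 in the dKO-labelled library. Ifit3, an antiviral effector, read 1.48, 1.98, 50.5 and 4.66 FPKM in the same order. Both thus stood highest in the G3 Terc-labelled library, with the dKO-labelled one nearer to the KO-labelled. The interferon-stimulated response element was searched as GAAANNGAA and lay in 18 of 29 windows of this list (62.1%), against 8.09% of members. Of 15 genes of class I presentation, 1 was lower, H2-Q4, and the median was 0.03 against 2.52 in the other pair. H2-D1, a classical class I heavy chain, read 43.7 FPKM in wild type, 65.9 in the KO-labelled, 512 in the G3 Terc-labelled and 39.6 in the dKO-labelled library.

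Chemokine, acute phase and complement genes differed in both directions. Among 24 chemokines and cytokines, 3 were higher, Il11 (1.75 and 6.71 FPKM), Cxcl14 (43.3 and 118) and Cxcl12 (73.8 and 163), and Tnfsf11, the osteoclast factor RANKL, was lower at 4.68 and 1.46 FPKM, and 8 of the 24 had a difference below 0. Among acute phase genes, the prostaglandin synthase gene Ptgs2 was higher at 41.5 and 128 FPKM, and Ptx3, a soluble pattern recognition protein, read 69.4 and 48.4 FPKM. Ceruloplasmin (Cp, 0.293 and 3.13 FPKM) and Serpina3n (0.266 and 1.81) were also past the size rule, but they are members only through their level in the dKO-labelled library. With no filter on low values the median of this list was 0.000285. Of 12 complement genes, the membrane regulators Cd59a (2.93 and 24.5 FPKM, 8.36-fold) and Cd55 (4.83 and 26.2) were higher. None of 19 NF-kappa-B genes was higher or lower, and their median was -0.02. The RelA-type kappa-B site, searched as GGNNTTTCC, lay in 7 of 14 windows of that list, in 4 of 16 of the chemokine list (25.0%) and in 4 of 7 of the acute phase list (57.1%), against 7.09% of members. Macrophage markers differed too. All 12 were at a higher level in the dKO-labelled than in the KO-labelled library, at a summed 25.4 against 9.25 FPKM, beside 6.81 in wild type and 9.88 in the G3 Terc-labelled library, and Lyz2, a lysozyme gene, was higher at 2.41 and 11.5 FPKM. The pan-leukocyte gene Ptprc was at 0.0595 and 0.0795 FPKM, and Aif1 was listed at 0 in the KO-labelled library. The part of macrophages in these differences was not tested.

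Some Hox genes, most of them posterior, were past the size rule in either direction. Hox genes encode transcription factors that mark position along the body and limb axes, with paralogue number rising toward the tail and the fingers, and fibroblasts keep this code in culture. Hoxd13 read 5.13 FPKM in wild type, 8.66 in the KO-labelled, 1.16 in the G3 Terc-labelled and 0.198 in the dKO-labelled library (difference -3.01). Hoxc12 read 5.93, 0.626, 7.85 and 12.9 FPKM in the same order (3.10), so the KO-labelled library stood below the other 3. Hoxa13 was lower at 2.95 and 0.182 FPKM, and Hoxc13 and Hoxb13 were higher at 0.651 and 5.28 and at 0.406 and 3.21 FPKM. Hoxd11 was also lower (-1.53) and Hoxc11 higher (1.01, named after its values were seen). In all, 4 of 23 measured posterior Hox genes were higher and 3 lower, against 2.43% and 2.36% of all members. Hoxc12, Hoxc13 and Hoxb13 were under 1 FPKM in the KO-labelled library, and Hoxd13, Hoxa13 and Hoxd11 under 1 FPKM in the dKO-labelled one. Each of these is a member only through its level in the other library. Of 12 anterior Hox genes, 10 had a difference above 0 and 3 were higher, all from the A cluster. The 3 were Hoxa5 (2.12 and 10.3 FPKM), Hoxa3 (1.01 and 5.38) and Hoxa2 (0.407 and 2.21), and Hoxa2 is a member only through the dKO-labelled library. Other genes of limb and skeletal patterning followed in both directions. Msx1, a homeobox gene of limb mesenchyme, was lower at 4.93 and 0.406 FPKM, Twist2 was lower at 153 and 56.1, and Mgp, an inhibitor of calcification, was higher at 174 and 556 FPKM. The sources used here do not name the part of the embryo that was cultured.

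**Figure D4:**
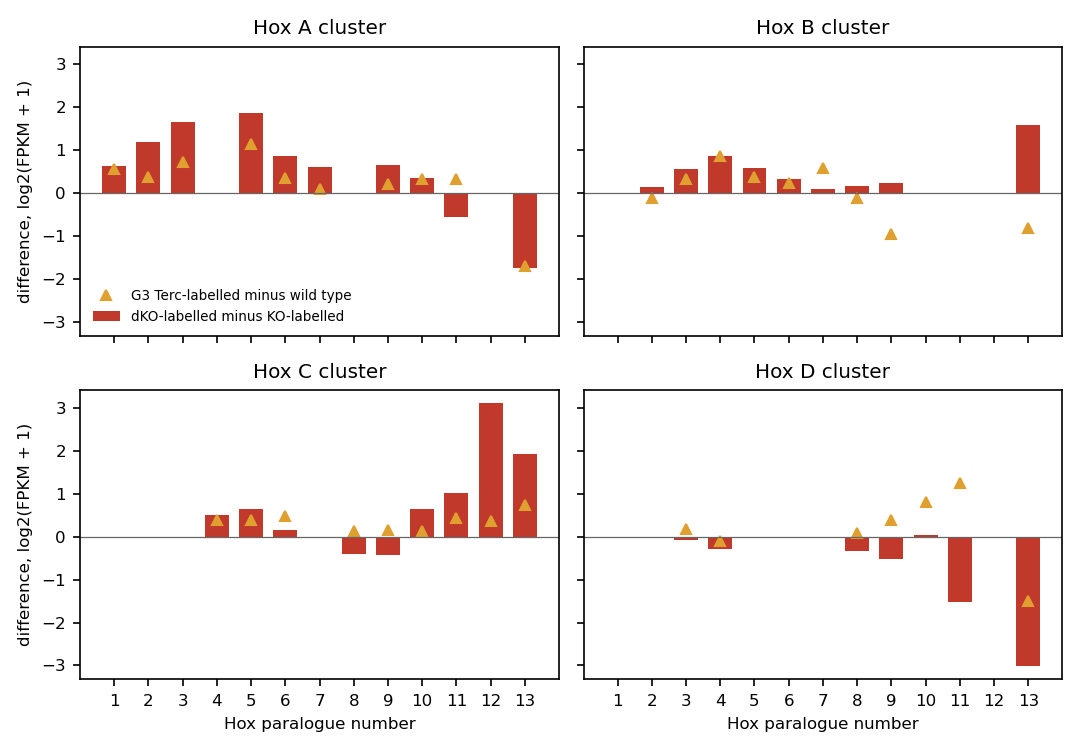
Difference of log2(FPKM + 1) for each measured Hox gene by paralogue number in the A, B, C and D clusters, as bars for dKO-labelled minus KO-labelled and triangles for G3 Terc-labelled minus wild type; each is a difference between single libraries. Hoxc12 (3.10) and Hoxd13 (-3.01) are the longest bars, with triangles at 0.35 and -1.51.

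Further members of largest difference belong to none of these lists. On the lower side these were the matrix gene Tnn, tenascin-W (12.9 and 0.322 FPKM), Coch (15.6 and 0.591), the transcription factor genes Runx3 (5.33 and 0.0815) and Bcl11b (5.07 and 0.120), the protease-activated receptor gene F2rl1 (26.3 and 4.0), the chemerin receptor gene Cmklr1 (10.6 and 1.14), Fndc1 (20 and 3.39) and cardiac troponin T, Tnnt2 (13.2 and 2.05). On the higher side were the kinase gene Dmpk (17.4 and 140 FPKM), the natriuretic peptide clearance receptor gene Npr3 (1.27 and 15.5), Cpxm1 (4.33 and 37.2), Spon2 (1.55 and 16.8), S100b (0.343 and 6.40) and the amine oxidase gene Aoc3 (1.41 and 11.8). The genes listed as 1500015O10Rik (6.07 and 56.0 FPKM) and 9930013L23Rik (8.93 and 63.6) were also among them. Pisd-ps1 (0.625 and 19.9 FPKM) and Hist1h4m (0.249 and 9.47) have near-identical copies and are uncertain. Both, and S100b, are members only through their level in the dKO-labelled library. Tnn, Coch, Runx3 and Bcl11b are members only through the KO-labelled one. Batf was listed at 0 in the dKO-labelled library (2.07 FPKM in the other) and 2210409E12Rik at 0 in the KO-labelled one, both past the size rule and named after their values were seen.

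The Terc label was then read in the other pair over the same genes, with no library in common. There 970 members (8.79%) were higher and 693 (6.28%) lower in the G3 Terc-labelled library than in wild type, and the standard deviation across genes was 0.82. Across the 11031 genes, which are not independent replicates, Pearson's r between the pairs' differences was 0.69 and Spearman's rank correlation 0.72. Of the 268 higher members, 188 (70.1%) were also higher in the other pair, where they made up 19.4% of its higher genes. Of the 260 lower members, 198 (76.2%) were also lower there, 28.6% of its lower genes. Among the 386 genes called the same way in both pairs, 312 had the smaller difference in the pair labelled Gadd45a-deficient, with a median size of 1.26 against 1.93.

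**Figure D5:**
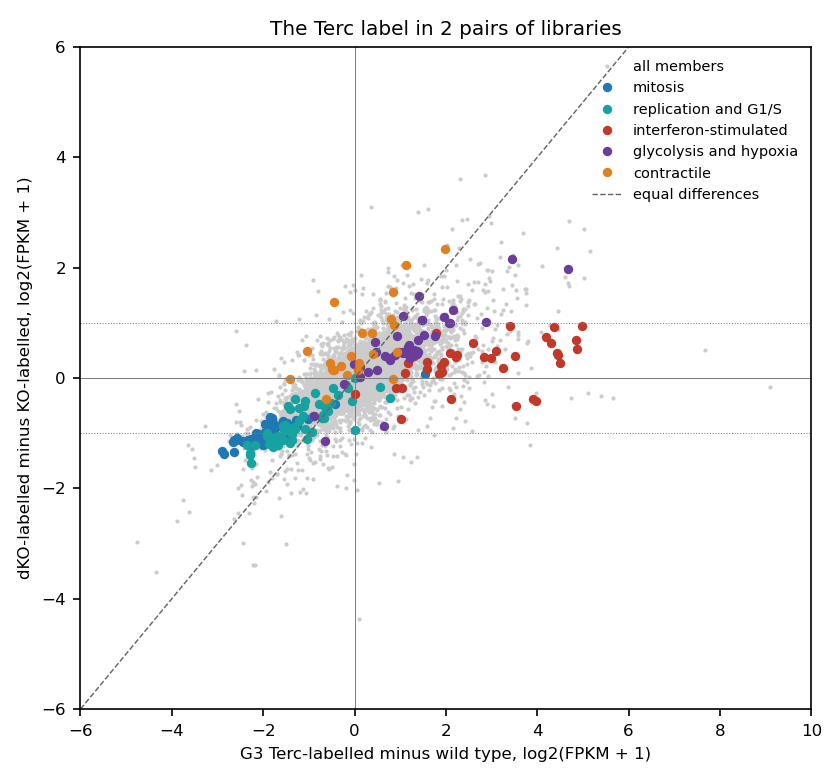
Each point is 1 of 11031 genes, by its difference of log2(FPKM + 1) in the G3 Terc-labelled minus wild type pair (horizontal) and the dKO-labelled minus KO-labelled pair (vertical), with 5 gene lists coloured, dotted lines at the size rule and a dashed line where both are equal. Mitosis genes lie low in both, interferon-stimulated genes spread along the horizontal axis (median 2.59) close to 0 on the vertical one (0.37), and r across all genes was 0.69.

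The gap between the 2 readings was widest for inflammatory genes. The double difference, the first pair's difference minus the second's, has no residual degree of freedom with 4 libraries and was not tested. It was most negative for Saa3, an acute phase apolipoprotein, at 9.55 FPKM in wild type, 9.95 in the KO-labelled, 5800 in the G3 Terc-labelled and 8.73 in the dKO-labelled library. The chemokines Ccl11 (0.471, 1.04, 298 and 1.90 FPKM in the same order), Cxcl1 (2.75, 5.58, 189 and 4.10) and Cxcl5 (9.42, 18.9, 440 and 14.9) came next, with the stromelysin gene Mmp3 (2.41, 3.45, 116 and 2.67), the opioid precursor gene Penk (1.31, 2.69, 60.3 and 1.87), the immunoproteasome subunit gene Psmb8 (2.51, 5.94, 46.8 and 2.95) and tetherin, Bst2 (59.1, 109, 949 and 81.1). In these genes a single library, the G3 Terc-labelled one, stood above the other 3. Rps27, uncertain as given above, was also in this group, but there the dKO-labelled library stood below the other 3 (420, 220, 448 and 9.70 FPKM). The double difference was most positive for Ptn, the growth factor pleiotrophin, at 162, 184, 26.1 and 333 FPKM in that order. The imprinted RNA gene H19 came next at 389, 313, 73.8 and 475 FPKM. The imprinted genes Igf2 (209, 177, 20.7 and 96.7 FPKM) and Mest (27.4, 27.4, 1.27 and 11.3), the peptide hormone gene Nppa (1.47, 0.320, 0.324 and 3.53) and Nov (18.7, 38.3, 3.38 and 42.6) followed. Ptn, H19, Igf2, Mest and Nov were lowest in the G3 Terc-labelled library. Pisd-ps3 was also in this group and is uncertain, since it has near-identical copies.

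Genes near chromosome ends were read next, since short telomeres lie beside them. Of 183 measured genes among the 20 most distal protein-coding genes of each autosome, 3 were higher and 2 were lower, and the median was 0.01. They were Cd34, Sh3bgr and Lhx8, and Ets2 and Ncapg2. Over all members, 2.43% were higher and 2.36% lower. All 8 measured genes among the 10 nearest on each side of Terc had a difference above 0. Their median was 0.69, and 5321 of all 11031 members had a difference above 0. Of the 8, 2 were higher, against 2.43% of all members. Txnip, an inhibitor of thioredoxin, read 24.5 and 64.9 FPKM, and Hist2h3c2 read 0.552 and 3.75 FPKM. Hist2h3c2 is a member only through its level in the dKO-labelled library. It and Hist2h3c1, also among the 8, are histone genes, and their values are uncertain as that of Hist1h4h is. The same 8 genes had a median of 0.81 in the other pair.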

How the data were processed

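Poly(A) RNA of 4 fibroblast cultures was sequenced, per the labels' protocols. Values are FPKM as deposited by the authors, 1 per gene symbol and library. The submitters' processing notes name TopHat2 2.1.1, Cufflinks 2.2.1 and the build mm9. They name no annotation, strand setting or filter, so overlapping and antisense genes are uncertain. FPKM shares fragments between near-identical copies.

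Of 23235 symbols, 23052 (99.2%) were matched to RefSeq names of GRCm38.p6, used for names, chromosome and neighbours. Left out were 747 short RNAs, 975 other X or Y symbols and 10482 below the mean of 1 FPKM. The pseudocount was 1 FPKM, which shrinks differences of low genes. Depth was estimated from low values that lie near whole fragments (75.3% to 82.5% within 0.1). Python 3.11.15, pandas 2.3.3 and numpy 2.4.6 were used. The size rule was tried on simulated libraries with counting noise only, which says nothing of the spread between cultures.

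Genes named were the Gadd45 family, Terc, Tert, Cdkn1a and Cdkn2a, the 15 largest differences each way, the 5 largest in each list, the 10 largest double differences each way and members past the size rule in opposite directions. A selection of the genes that rule gives is printed, and some are not reported here. Members and lists (43 pathway, 15 cell type and 2 position lists) were chosen with earlier results of these data known.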

Additional observations from a re-analysis of the deposited data

Results flagged for a closer look

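For 7 members the 2 pairs of libraries were past the size rule in opposite directions, a difference between the pairs that was not tested. Lower in the dKO-labelled than the KO-labelled library but higher in the G3 Terc-labelled library than in wild type were Hoxd11 (-1.53 and 1.24), the growth cone gene Gap43 (-1.44 and 1.37), the transcription factor gene Twist2 (-1.43 and 1.07), the class I gene H2-Q4 (-1.22 and 3.85) and the semaphorin gene Sema3e (-1.04 and 1.73). The reverse was found for the semaphorin gene Sema7a (1.07 and -1.21) and the matrix gene Smoc2 (1.04 and -1.71). In FPKM, Twist2 read 170 in wild type, 153 in the KO-labelled, 357 in the G3 Terc-labelled and 56.1 in the dKO-labelled library, and Smoc2 read 27.2, 21.5, 7.62 and 45.2.

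Among the sex chromosome genes left out of the members, 4 on the Y chromosome were measured in the KO-labelled library, Eif2s3y at 23.1 FPKM, Ddx3y at 16.4, Kdm5d at 4.34 and Uty at 3.21. In wild type they lay between 0 and 0.0328 FPKM, and in the dKO-labelled library between 0 and 0.0321 FPKM. The 373 measured X-linked genes had a median difference of 0.04.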

How the results depend on the processing

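With 1 library per genotype, culture, sex, passage and label cannot be told apart, and no replicate could be left out. No paired analysis was possible because each genotype had a single library. With a pseudocount of 0.1 FPKM in place of 1, the counts were 455 higher and 414 lower, and with a mean of 5 FPKM or more in place of 1 there were 161 higher and 177 lower, from fewer genes. Under the other alternatives (pseudocount 0.5 FPKM, no filter, quantile normalization, median-of-ratios size factors, X and Y genes kept) both counts stayed within 1.5 times of those reported. Pearson's r lay between 0.65 and 0.73 over the alternatives, Spearman's rank correlation included. Mitosis had 34 to 47 lower members and none higher under every alternative run. At a mean of 5 FPKM or more, the median of the histone list turned to -0.0591 (0.18 as reported) and that of the Gadd45 and p38 list to 0.0123 (-0.11), and with no filter the acute phase median was 0.000285 (0.80 as reported). Of 1919 values of named genes under alternatives, none changed sign past the size rule, and 42 moved by more than 1.5-fold, all away from 0 under a smaller pseudocount.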

Other observations

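Imprinted genes, expressed from 1 parental allele, were described by no comparison above as a group. Of 24 measured members, 18 had a difference above 0 and the median was 0.44. Meg3, a non-coding RNA of the maternal allele, was higher, at 118 FPKM in wild type, 136 in the KO-labelled, 236 in the G3 Terc-labelled and 331 in the dKO-labelled library, and Mest, a paternally expressed gene, was lower at 27.4 and 11.3 FPKM in the pair. Nnat read 8.17 and 15.9 FPKM, and Igf2 read 177 and 96.7 FPKM.

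Genes of protein turnover and respiration lay slightly lower as groups. Of 31 proteasome genes, 29 had a difference below 0 with a median of -0.16, and of 44 genes of oxidative phosphorylation, 37 did with a median of -0.12, with none past the size rule in either list. Of 24 chaperones of the endoplasmic reticulum, 19 had a difference below 0, with the collagen chaperone gene Serpinh1 at 1414 and 1042 FPKM. In the list of iron genes, Cp was the 1 higher of 17, and the transferrin receptor gene Tfrc read 28.5 and 14.5 FPKM. Of 14 genes around Gadd45 and p38, none was higher or lower, and Mapk13, a p38 kinase gene, read 3.68 FPKM in wild type, 6.26 in the KO-labelled, 54.9 in the G3 Terc-labelled and 11.9 in the dKO-labelled library.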
